A study of Danio rerio with 8 samples.

Results

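The cytoplasmic ribosomal protein genes were examined in polyA RNA from whole zebrafish larvae of the TLEK strain at 5 days post fertilisation. The larvae were upf1 mutants, homozygous for a nonsense mutation in upf1, or wild types, with 4 stranded libraries for each genotype. No treatment is given for either genotype. Neither the clutch behind a library nor its number of larvae is labelled, so the p-values below reflect only the spread among these 8 libraries, which may be technical. Members were chosen by symbol: names of the forms rpl, rps and rplp followed by a number, leaving out the rps6k kinases, rps27l, rpl10a, rpl3 and rpl22l1. The rule found 80 of the 31953 genes in the count table, of which 46 are named for the large subunit and 33 for the small subunit. The 46 include rpl7l1, a relative of rpl7 known for a role in ribosome assembly, which was counted with the large subunit by its name. The remaining gene, rps19bp1, carries such a name but encodes a protein that binds Rps19 and is no ribosomal protein. All 80 genes passed the filter on low counts.

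Each ribosome is built from a large and a small subunit, and each subunit joins ribosomal RNA with one copy of most of its proteins, so the proteins are needed in matched amounts. In vertebrates the mRNAs of ribosomal proteins start with a tract of pyrimidines, the TOP motif, through which mTOR signalling and the LARP1 protein set their translation and stability together. Upf1 is the RNA helicase that starts nonsense-mediated decay of mRNAs with a premature stop codon. In the nematode C. elegans, some ribosomal protein genes, rpl-12 and rpl-7A among them, are known to make alternatively spliced mRNAs that this decay removes.

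The libraries held 75335048 to 94331733 counts in the upf1 mutants and 86872276 to 96104507 in the wild types. The upf1 mRNA itself stood at 276.1 to 293.9 CPM (counts normalised for library size and composition) in the mutants, against 122.6 to 132.5 CPM in the wild types. A nonsense mutation need not lower an mRNA, so this does not check the labels. The quasi-likelihood test of edgeR took in 23680 genes and called 2159 of them (9.12%) higher in mutants and 1223 (5.16%) lower at an adjusted p under 0.05. The composition scaling factors were 1.0189 to 1.1056 in mutant libraries and 0.8932 to 0.9774 in wild-type libraries. Without them the median log2 fold change of all genes was 0.15 in place of -0.007, and the calls were 4260 higher and 610 lower.

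Messenger RNAs of both subunits were lower in upf1 mutants, by about the same proportion. Of the 80 genes, 35 were called lower and 0 higher, where 5.16% of all tested genes were called lower and 9.12% higher. A further 45 did not pass the test. In 74 of the 80 the log2 fold change was below 0, as it was for 50.8% of all tested genes. The median log2 fold change was -0.46, equal to 72.7% of the wild-type level, with quartiles of -0.51 and -0.41, against a median of -0.007 over all tested genes. The large subunit had 21 of 46 genes called lower and a median of -0.46 (72.6% of the wild-type level). The small subunit had 14 of 33 called lower and a median of -0.46 (72.7%). All mutant libraries lay below all wild-type libraries for 42 of the 80 genes, 25 in the large and 17 in the small subunit, where 8.71% of all tested genes did so. At an unadjusted p under 0.05 there were 72 genes, of which 1, rps9, was higher in mutants. Of all 23680 tested genes, 6942 were under that cut, 3841 of them higher in mutants. The count of 0 genes called higher became 1 with DESeq2, again rps9, and stayed at 0 with limma voom.

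**Figure D1:**
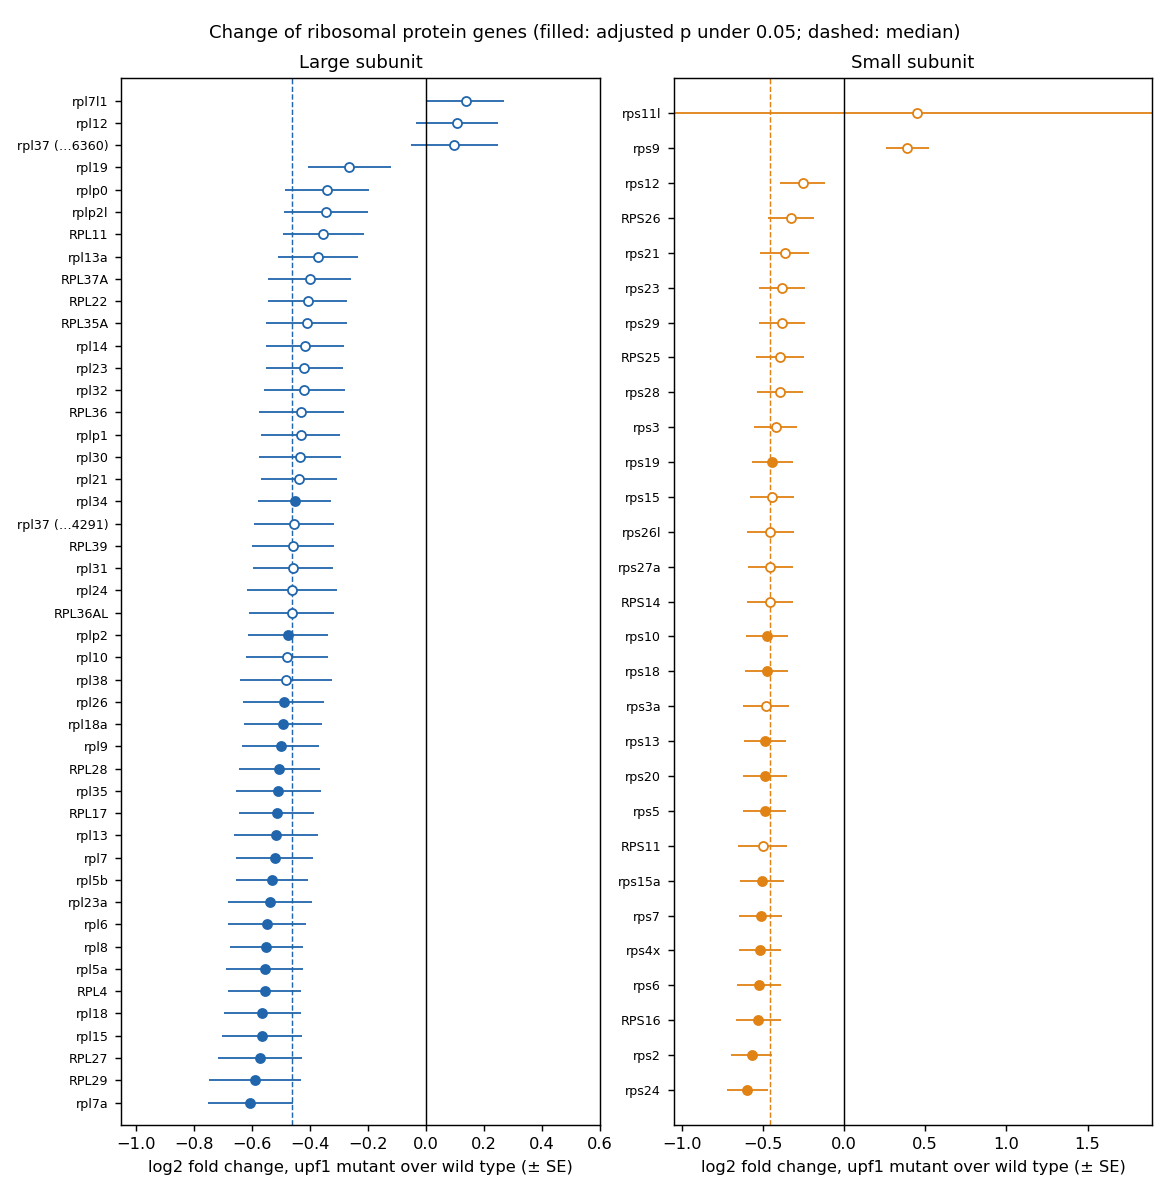
Log2 fold change of upf1 mutants over wild types for the 46 large subunit genes (left) and for small subunit genes (right). On the right, 4 of the 33 are not drawn. Bars show 1 standard error, worked out from the fold change and the F statistic of edgeR. Points are filled where the adjusted p was under 0.05, and a dashed line marks each subunit's median of -0.46. Most genes lie close to that line, while rpl7l1, rpl12 and 1 of the rpl37 genes on the left and rps11l and rps9 on the right lie above 0; the horizontal scales of the panels differ.

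The number of calls rested on single libraries. It was 2 without mutant 1, 6 without mutant 2, 2 without mutant 3 and 55 without mutant 4, and 8 without wild type 1, 25 without wild type 2, 29 without wild type 3 and 17 without wild type 4, with 74 or 75 genes below 0 each time. Over all tested genes the lower calls were 678, 1105, 849 and 989 without mutants 1 to 4. They were 812, 1279, 683 and 675 without wild types 1 to 4, against 1223 with all 8 libraries. With total-count scaling, chosen after seeing the data, 16 genes were called lower and 1 higher, again with 74 below 0, and DESeq2's Wald test called 66 lower and 1 higher. Of all tested genes, total-count scaling called 610 lower and DESeq2 called 2105 lower.

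Summed over the large subunit, the genes gave 27790, 28540, 27370 and 34490 CPM in mutants 1 to 4, against 39490, 50120, 35450 and 36970 CPM in wild types 1 to 4. The means were 29550 ± 3330 CPM in mutants and 40510 ± 6621 CPM in wild types (SD, n = 4 each), a ratio of 0.729. Mutant 4 lay well above the other mutants and wild type 2 well above the other wild types, yet no mutant reached a wild type. The small subunit summed to 18310, 18820, 17790 and 22610 CPM in mutants, against 25380, 32200, 23050 and 23820 CPM in wild types. Its means were 19380 ± 2192 CPM in mutants and 26110 ± 4172 CPM in wild types, a ratio of 0.742, and the same libraries stood apart. As a share of all counts, with no composition scaling, the 80 genes took 4.86, 5.24, 4.74 and 5.82% in mutants, against 6.22, 7.35, 5.72 and 5.83% in wild types. On this scale mutant 4 lay between wild types 3 and 4, so the groups overlapped.

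**Figure D2:**
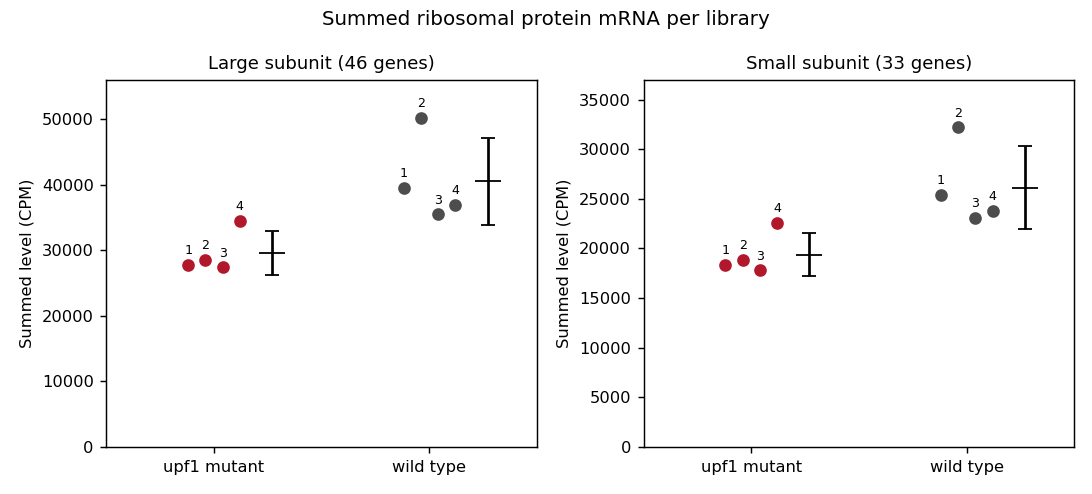
Summed CPM of the large subunit genes and of the small subunit genes, with 1 numbered point per library, upf1 mutants left of wild types, and the mean with 1 SD beside each group. Mutant 4 (34490 and 22610 CPM) and wild type 2 (50120 and 32200 CPM) lie above the other libraries of their genotype, and all mutants lie below all wild types in both panels.

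The subunits moved together from library to library. The large subunit's sum divided by that of the small subunit was 1.517, 1.517, 1.539 and 1.526 in mutants, against 1.556, 1.557, 1.538 and 1.552 in wild types. Mutant 3 just overlapped wild type 3. Without rpl12 and rps9, taken out after their values were seen, the ratio was 1.583 ± 0.0102 in mutants and 1.576 ± 0.0118 in wild types (SD, n = 4 each), and the groups overlapped.

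Among large subunit proteins, 10 of the 12 smallest adjusted p-values of the whole set were found. RPL4 (ENSDARG00000041182), a protein of the subunit's peptide exit tunnel, had 1717, 1591, 1619 and 1935 CPM in mutants, against 2448, 3048, 2232 and 2358 CPM in wild types. It fell to 68.0% of the wild-type level (log2 fold change -0.56, SE 0.126, edgeR adjusted p = 0.0181), and no mutant library overlapped a wild-type library. The gene rpl8 (ENSDARG00000014867), whose protein lies near the peptidyl transferase centre, had 907.8, 894.9, 895.5 and 1081 CPM in mutants, against 1368, 1676, 1219 and 1272 CPM in wild types. It fell to 68.3% (SE 0.126, edgeR adjusted p = 0.0188), again with mutant 4 the highest of its group and still below every wild type. The largest fall among the 12 was that of rpl7a (ENSDARG00000019230), at 1155, 1079, 1070 and 1448 CPM in mutants and 1818, 2197, 1546 and 1666 CPM in wild types, or 65.7% of the wild-type level (SE 0.145, edgeR adjusted p = 0.0229). The others were rpl5a, rpl5b, rpl6, rpl15, RPL17, rpl18 and RPL27, at 67.2 to 70.0% of the wild-type level, and in each of them all mutants lay below all wild types.

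Both zebrafish copies of rpl5, whose protein carries 5S rRNA into the ribosome together with Rpl11, changed alike. The gene rpl5a (ENSDARG00000020197) had 664.9, 674.5, 636.7 and 817 CPM in mutants, against 981.5, 1263, 926.6 and 935.3 CPM in wild types. Its copy rpl5b (ENSDARG00000015862) had 764, 733.2, 718.1 and 904.5 CPM in mutants, against 1113, 1347, 999.4 and 1047 CPM in wild types. They fell to 68.0% (edgeR adjusted p = 0.0219) and 69.2% (edgeR adjusted p = 0.0211), and the log2 ratio of rpl5a to rpl5b overlapped between genotypes, at -0.16 ± 0.034 in mutants and -0.14 ± 0.042 in wild types. Their partner RPL11 (ENSDARG00000043509) had 468.4, 532.5, 464.5 and 599.5 CPM in mutants, against 655.3, 823.7, 583.8 and 577.1 CPM in wild types. Its difference did not pass the test (log2 fold change -0.35, SE 0.139, edgeR adjusted p = 0.126), and mutant 4 overlapped wild types 3 and 4.

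The 21 large subunit calls were 0 without mutant 1 or mutant 3, 4 without mutant 2, 34 without mutant 4, 6 without wild type 1 and 12 without wild type 4. Without mutant 1 or mutant 3, all 10 of the large subunit genes listed above lost their calls, with edgeR adjusted p-values of 0.0517 to 0.0804 and 0.053 to 0.0726. Without mutant 2, rpl6, rpl7a, rpl15, RPL17, rpl18 and RPL27 lost theirs (edgeR adjusted p = 0.0507 to 0.0619), and without wild type 1, rpl6, rpl7a, RPL17 and RPL27 did (0.0542 to 0.0638).

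The P-stalk, the flexible arm of the large subunit that recruits elongation factors, is built from Rplp0, Rplp1 and Rplp2. The gene rplp0 (ENSDARG00000051783) had 2588, 2516, 2503 and 2920 CPM in mutants, against 3104, 4307, 2829 and 3093 CPM in wild types, and did not pass the test (log2 fold change -0.34, SE 0.144, edgeR adjusted p = 0.15). Mutant 4 overlapped wild type 3. The gene rplp1 (ENSDARG00000021864) had 785.5, 923.6, 856.2 and 1023 CPM in mutants, against 1187, 1483, 1032 and 1140 CPM in wild types, and missed the threshold although the groups did not overlap (log2 fold change -0.43, edgeR adjusted p = 0.0611). Of the pair that encodes Rplp2, rplp2 (ENSDARG00000101406) had 273.4, 308.6, 277.8 and 376.8 CPM in mutants, against 395.4, 503.9, 364.2 and 455.3 CPM in wild types, and fell to 71.9% (SE 0.138, edgeR adjusted p = 0.0474). That call was lost without any 1 of mutants 1, 2 and 3 or wild types 1, 2 and 4 (edgeR adjusted p = 0.0696 to 0.125). For rplp2, too, mutant 4 lay above wild type 3. Its copy rplp2l (ENSDARG00000011201) had 392.1, 427.7, 386.5 and 508.2 CPM in mutants, against 540.9, 684.5, 448.7 and 502.6 CPM in wild types, with a log2 fold change of -0.34 that did not pass (edgeR adjusted p = 0.149). The log2 ratio of rplp2 to rplp2l was -0.475 ± 0.036 in mutants and -0.33 ± 0.145 in wild types (SD, n = 4 each), with overlap.

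In the small subunit the smallest adjusted p belonged to rps24 (ENSDARG00000039347), whose protein takes part in processing the small subunit's rRNA. It had 510.2, 548.7, 476.2 and 610.4 CPM in mutants, against 816, 979.7, 716.3 and 732.1 CPM in wild types, with no overlap. It fell to 66.1% (log2 fold change -0.60, SE 0.128, edgeR adjusted p = 0.014) and kept its call in all 8 fits with 1 library left out. The gene rps2 (ENSDARG00000077291), encoding a protein at the mRNA entry channel, had 1908, 1787, 1856 and 2184 CPM in mutants, against 2706, 3454, 2556 and 2765 CPM in wild types. It fell to 67.4% (SE 0.125, edgeR adjusted p = 0.0156) and also kept its call in those 8 fits. The gene rps6 (ENSDARG00000019778), whose protein is the best known ribosomal target of the S6 kinases below mTOR, had 1008, 956.8, 951.1 and 1199 CPM in mutants, against 1416, 1834, 1301 and 1378 CPM in wild types. It fell to 69.4% (edgeR adjusted p = 0.0295), with no overlap, and was chosen after its values were seen. The 14 small subunit calls became 2 without any 1 of mutants 1, 2 and 3 or wild type 1, and 5 without wild type 4.

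Heterozygous loss of certain ribosomal protein genes causes Diamond-Blackfan anaemia in humans, a failure of red cell production. Of 20 zebrafish genes named after such disease genes, all among the 80, 11 were called lower and 0 higher, and all 20 had a log2 fold change below 0. Their median was -0.47, against -0.46 for all 80 genes. All mutants lay below all wild types for 12 of the 20, for 42 of the 80 and for 8.71% of all tested genes. Calls of lower were 35 among the 80 and 5.16% among all tested genes. The smallest adjusted p-values were those of rps24 and rpl5b, given above. The first gene linked to the disease, rps19 (ENSDARG00000030602), had 350.9, 380, 340.9 and 440.4 CPM in mutants, against 520.1, 620.3, 455.5 and 459 CPM in wild types, and was chosen for mention after its values were seen. It fell to 73.6% (SE 0.128, edgeR adjusted p = 0.0473), and lost its call in 7 of the 8 fits with 1 library left out, the exception being the fit without mutant 4. The count of 11 became 1 without mutant 1 or mutant 3, 3 without mutant 2 and 5 without wild type 1.

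A few genes did not follow the rest. The gene rps9 (ENSDARG00000011405), encoding a protein near the mRNA entry site of the small subunit, had 1427, 1403, 1330 and 1668 CPM in mutants, against 1103, 1366, 968 and 1014 CPM in wild types. Its log2 fold change of 0.39 (SE 0.132) did not pass the test (edgeR adjusted p = 0.0805), and mutant 3 lay below wild type 2. The call depended on the setting: it passed without wild type 2 (log2 fold change 0.50, edgeR adjusted p = 0.0169), with DESeq2 (adjusted p = 0.0295) and with total-count scaling (0.55, edgeR adjusted p = 0.00631), while the other 7 fits with 1 library left out gave edgeR adjusted p-values up to 0.201. The gene rpl12 (ENSDARG00000006691), whose protein sits at the base of the P-stalk, had 1037, 1229, 1222 and 1193 CPM in mutants, against 998.6, 1402, 1013 and 933.7 CPM in wild types. These groups overlapped (log2 fold change 0.11, SE 0.14, edgeR adjusted p = 0.665).

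**Figure D3:**
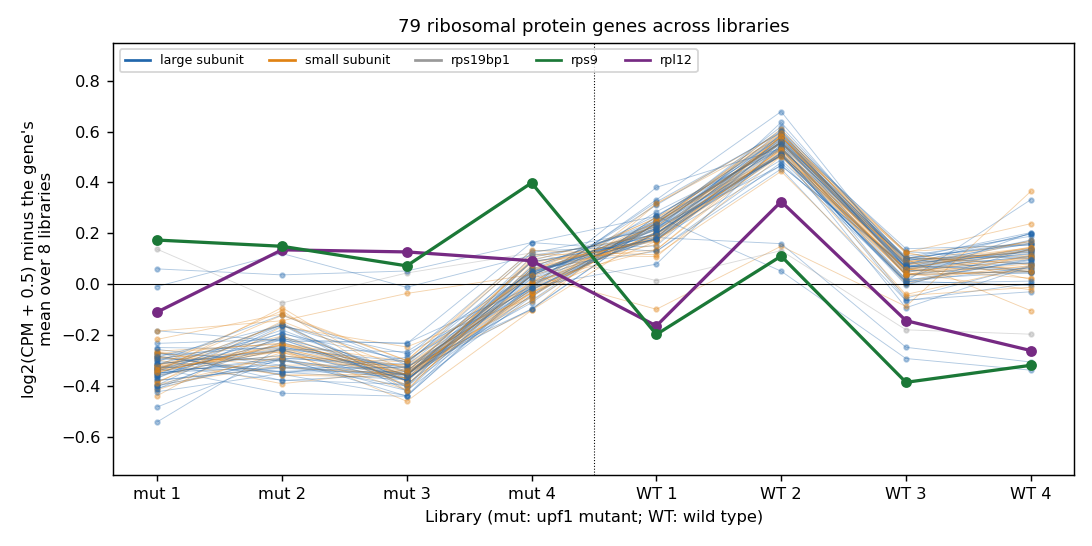
Log2(CPM + 0.5) minus the gene's mean over the 8 libraries, for 79 of the 80 genes (rps11l is left out for its wide range), with a line joining each gene's values and upf1 mutants (mut) left of wild types (WT). Most genes share one profile, low in mutants 1 to 3, near 0 in mutant 4 and highest in wild type 2, while rps9 (green) and rpl12 (purple) keep some of that shape but lie higher in the mutants.

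To set each gene against the rest, its log2 level was first taken as a deviation from its own mean over the 8 libraries. The median deviation of the 80 genes in the same library was then subtracted, a scale chosen after seeing the data. The sign of such a value does not say whether a gene is more or less abundant than the others. On this log2 scale rps9 stood at 0.50, 0.40, 0.43 and 0.37 in mutants, against -0.41, -0.43, -0.45 and -0.42 in wild types. The relative levels of rpl12 were 0.22, 0.39, 0.48 and 0.06 in mutants, against -0.37, -0.22, -0.20 and -0.36 in wild types. Neither gene overlapped between genotypes once the shared profile was removed, but this was not particular to them. Mutants were also higher without overlap for rplp2l, rpl7l1, rpl13a, rpl14, rpl19, RPL11, rps12, rps19bp1, rps23, RPS26 and the rpl37 copy ENSDARG00000076360. They were lower without overlap for rpl5a, rpl7a, rpl8, rpl15, rpl18, rpl26, RPL27, rps7 and rps24. Some of these gaps were small: rpl14 stood at 0.013, -0.003, 0.049 and 0.019 in mutants, against -0.007, -0.026, -0.043 and -0.009 in wild types. How many of all tested genes would not overlap on this scale was not counted, so these lists have no share to be set against. In an edgeR fit of all genes with the libraries scaled to that median, rps9 was higher in mutants by 0.85 on the log2 scale (SE 0.102, edgeR adjusted p = 0.000196), and by 0.83 to 0.87 with any 1 library left out. In the same fit rpl12 was higher by 0.58 (SE 0.125, edgeR adjusted p = 0.00519, at most 0.0208 with a library left out). This scaling sets the ribosomal protein genes near 0 and raises most other genes, with a median log2 fold change of 0.44 and 35.1% of tested genes called higher and 0.802% lower, so a gene outside the family would often pass it. It called 5 of the 80 higher and 0 lower, and 4 or 5 of those 5 kept their call with any 1 library left out.

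The other 3 of those 5 are low in these libraries or are no ribosomal protein. The relative log2 fold change was 0.60 for rpl7l1 (edgeR adjusted p = 0.0124), the relative of rpl7, and 0.58 for rps19bp1 (edgeR adjusted p = 0.00988). It was 0.565 for the sparse rpl37 copy ENSDARG00000076360 (edgeR adjusted p = 0.0241), a call lost without any 1 of mutants 1, 2 and 3 or wild types 3 and 4 (up to 0.0668). Smaller shifts of the same sign were seen in rps12 (0.20, edgeR adjusted p = 0.145) and rpl19 (0.19, edgeR adjusted p = 0.153), whose relative levels did not overlap between genotypes but did not pass the test.

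**Figure D4:**
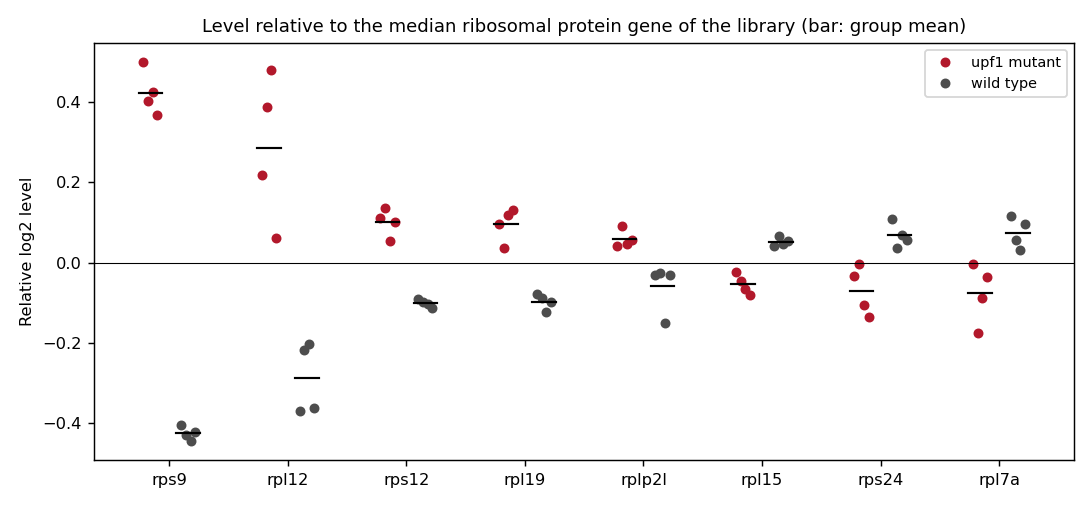
Deviation of the log2 level from the gene's own mean over the 8 libraries, minus the median deviation of the 80 genes in the same library. Shown are rps9, rpl12 and 6 other genes picked because their groups do not overlap. Each library gives 1 point, with upf1 mutants (red) left of wild types (grey) and bars at the group means. The gap is widest for rps9, whose mutants lie between 0.37 and 0.50 and whose wild types lie between -0.45 and -0.41; for rpl15, rps24 and rpl7a the mutants are lower, by far less.

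The profile over libraries was shared by most of the set. With the genotype means removed, the log2 level of 71 of the 80 genes correlated above 0.9 with the median of the other genes over the 8 libraries (median 0.976, lowest -0.547). This is a description: the values share libraries, scaling and larvae. The median SD within genotype was 0.205 on the log2 scale. The median deviation of the 80 genes from their own means was -0.33, -0.25, -0.35 and 0.03 in mutants 1 to 4, against 0.21, 0.54, 0.06 and 0.10 in wild types 1 to 4. For the elongation factor and other TOP genes described below it was -0.21, -0.19, -0.23 and 0.01 in mutants, against 0.11, 0.34, 0.06 and 0.13 in wild types. How many of all tested genes correlate above 0.9 with the profile was not counted, so it is not shown to be particular to this set.

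Several members are copies with one name stem, which can share reads, so the division between copies is uncertain. The log2 ratio of rps26l to RPS26 overlapped between genotypes, at 0.97 ± 0.112 in mutants and 1.095 ± 0.024 in wild types (SD, n = 4 each). The main rpl37 copy (ENSDARG00000034291) exceeded the sparse one by 5.86 ± 0.129 on the log2 scale in mutants and by 6.43 ± 0.146 in wild types (SD, n = 4 each), without overlap. The sparse copy itself had 5.17, 5.70, 5.16 and 5.67 CPM in mutants, against 5.98, 5.87, 4.30 and 4.11 CPM in wild types. The log2 ratio of rpl7l1 to rpl7 was -4.73 ± 0.08 in mutants and -5.40 ± 0.234 in wild types, also without overlap. The gene rps11l (ENSDARG00000093606) followed no genotype: it had 22.2, 1.13, 25.1 and 0.812 CPM in mutants, against 1.201, 1.34, 1.175 and 32.46 CPM in wild types. It was high in mutants 1 and 3 and in wild type 4, and low in the other 5 libraries (log2 fold change 0.45, SE 1.52, edgeR adjusted p = 0.885), and its sign turned without mutant 1 (-0.002) or mutant 3 (-0.17).

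Splicing of these genes was read from the authors' deposited tables, which cover skipped exons (SE), mutually exclusive exons (MXE), alternative 3' and 5' splice sites (A3SS, A5SS) and retained introns (RI). They list inclusion levels for a first and a second group of 4 samples and do not name the genotypes. Of 302 genes called over 2-fold higher in mutants with at least 100 junction reads, all 302 had more junction reads in the first group, and of 77 called over 2-fold lower, 0 did. The authors' deposited tables hold 181 events in 62 of the 80 genes. Of these, 6 were at an FDR under 0.05, or 3.31%, against 8.84% of all 37768 events. By class these were 3 of 120 SE events, 2 of 8 A5SS events, 1 of 13 RI events and none of the 32 MXE or 8 A3SS events. Many of the 120 SE events are exons included at or close to 100% in every sample, which left little room for a call. How common such exons are among all events was not counted, so the shares of 3.31% and 8.84% may not be alike. An added cut of 0.05 on the difference in inclusion left 0 events in the authors' deposited tables. No event of rps9 or rpl12 passed: the authors' deposited tables list 1 event for rps9 and 3 for rpl12, all with an FDR of 1. These values concern only the skipping of exons that were included at 99.8 to 100% in every sample. A 74 nt exon of rpl12 is listed more than once, with different junction reads. Its smaller set of inclusion reads, relative to the larger set, was higher in every first-group sample than in any second-group sample. This difference in junction use was not tested.

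Among the 6 events at an FDR under 0.05, the clearest differences in the authors' deposited tables were small in size and did not overlap between groups. In rplp1, a longer 5' splice site that adds 288 nt (chromosome 19, 1903656 to 1903943, minus strand, GRCz10) had listed levels of 5.5, 2.8, 2.9 and 4.8% in the first group. They were 1.0, 1.0, 1.0 and 0.9% in the second, with an FDR listed at 0 in the authors' deposited table. Its inclusion reads were 2134, 1146, 1193 and 2362 in the first group and 528, 667, 467 and 440 in the second. For a 4 nt shift of this splice site they were 508, 385, 437 and 599, and 494, 623, 436 and 404. These events may share reads, so the second-group levels may overstate use of the longer site. Another listed event compares the longer site with the 4 nt form. There each first-group sample had more reads for the longer site than any second-group sample. In rpl13a, an intron-retention event of 658 nt (chromosome 17, 24596814 to 24597471, plus strand, GRCz10) stood at 3.0, 3.2, 3.5 and 3.4% in the first group and 0.5, 0.5, 0.5 and 0.6% in the second, again with an FDR listed at 0 in the authors' deposited table. In both genes the less usual form was more common in the first group.

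For rpl5a, skipping of a 70 nt exon (chromosome 2, 10919507 to 10919576, minus strand, GRCz10) was supported by 340, 241, 373 and 342 reads in the first group of the authors' deposited table and 7, 10, 4 and 5 in the second. Its inclusion level was 97.4, 97.9, 97.1 and 98.0% in the first group and 100% in each sample of the second (FDR listed at 0 in the authors' deposited table). The length of this exon is no multiple of 3, so skipping it shifts the reading frame if it is coding. In rps24 the exon of 29 nt (chromosome 13, 30103375 to 30103403, plus strand, GRCz10) was included in 9.7, 11, 10.1 and 10.9% in the first group and 14.5, 13.9, 15 and 13.9% in the second, the only one of these 4 events where the rarer form was less common in the first group (FDR 2.21e-05 in the authors' deposited table). The remaining events were inclusion of a 118 nt exon of rpl9 (96.6 to 97.1% in the first group, 97.1 to 97.9% in the second, FDR 0.00806) and a 4 nt shift of the rplp1 5' splice site (1.8 to 2.6% and 1.5 to 1.8%, FDR 0.032), both as the authors' deposited tables give them. Both differ by under 1 percentage point, and the groups touch or overlap. Some events that did not pass also had groups apart. Skipping of a 111 nt exon of rplp0 (chromosome 5, 1696670 to 1696780) had 245, 192, 252 and 226 reads in the first group. The second group had 5, 5, 2 and 0. Inclusion of that exon was 99.2 to 99.4% in the first group and 100% in the second.

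**Figure D5:**
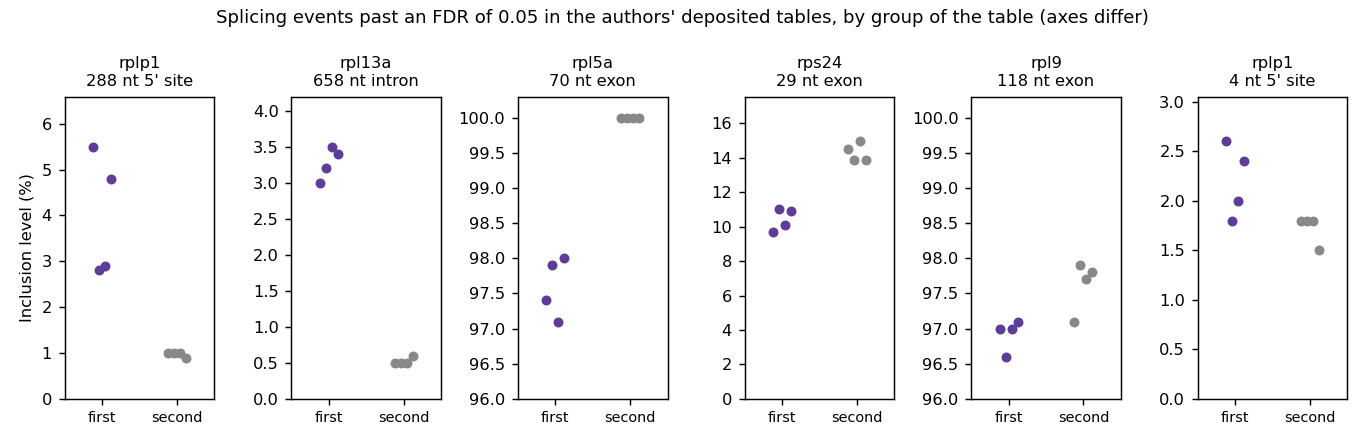
Inclusion level in percent for the 6 events at an FDR under 0.05 in the authors' deposited tables, 1 point per sample, with the tables' first group left of their second group. Vertical scales differ between panels, and those of rpl5a and rpl9 start at 96; the groups are apart for the rplp1 288 nt site, the rpl13a intron, the rpl5a exon and the rps24 exon, and touch or overlap for the other 2 events.

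Most other ribosome components, and most elongation factor and TOP genes, also lay lower in mutants, while a few rose. Of 7 further ribosome components outside the naming rule, 3 were called lower and 1 higher, with a median log2 fold change of -0.45. Among all tested genes 5.16% were called lower and 9.12% higher. Of the 7 components, 6 had a log2 fold change below 0. The falls included gnb2l1 (-0.57, edgeR adjusted p = 0.0184), which encodes the scaffold Rack1 of the small subunit, and one of a pair of genes named rps27.2, ENSDARG00000055475 (-0.53, edgeR adjusted p = 0.0346). The other, rps27.2 ENSDARG00000100513, rose to 71.6, 76.4, 64.1 and 86.2 CPM in mutants, against 25.5, 38.1, 24.4 and 29.4 CPM in wild types (log2 fold change 1.35, SE 0.15, edgeR adjusted p = 0.000398), with no overlap, and kept its call with any 1 library left out. The 3 falls became 0 without mutant 1 or mutant 3, 1 without mutant 2, and 2 without wild type 1, 2 or 4.

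Elongation factors and other genes known for TOP mRNAs gave 7 lower and 3 higher of 19, with a median of -0.325. Of the 19, 14 had a log2 fold change below 0. Among all tested genes 5.16% were called lower and 9.12% higher. The fall of naca (712 ± 60.4 CPM in mutants, 1104 ± 88 CPM in wild types, SD, n = 4 each, edgeR adjusted p = 0.0034), a chaperone subunit for nascent chains, kept its call with any 1 library left out. The same list held the largest rise named here, that of eef2a.1, one of the eef2 copies, at 107.6, 124, 115.2 and 112.8 CPM in mutants and 27.6, 24.1, 21.1 and 21.1 CPM in wild types (log2 fold change 2.29, edgeR adjusted p = 1.29e-06). The RNA-binding protein gene hnrnpa1b also rose (0.625, edgeR adjusted p = 0.000657). The count of 7 falls was 4 without mutant 3 and 5 to 8 without any other 1 library.

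Of 25 genes of the mTOR pathway and of TOP mRNA control, 3 rose and 6 fell, with a median of -0.13, where 9.12% of all tested genes rose and 5.16% fell. The rises included sesn2, a stress-induced inhibitor of mTORC1 (19.6 ± 1.36 CPM in mutants, 8.45 ± 1.23 CPM in wild types, edgeR adjusted p = 0.000156), and RPTOR, the mTORC1 subunit that binds substrates (0.61, edgeR adjusted p = 0.00128). The mTORC1 inhibitor gene tsc1a fell (-0.48, edgeR adjusted p = 0.00629). The 6 falls became 2 without mutant 4, wild type 3 or wild type 4, 3 without mutant 2, wild type 1 or wild type 2, and 4 without mutant 1 or mutant 3. With total-count scaling 5 rose and 2 fell, and the median of this list was 0.035, against 0.15 for all genes.

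Whole larvae mix many cell types, and in such RNA fewer cells of a type and less RNA per cell cannot be told apart. Marker lists were read beside the ribosomal protein genes, and beside all tested genes, of which 5.16% were called lower and 9.12% higher. Skeletal muscle markers had 4 of 9 genes lower and 0 higher, with summed levels of 34560 to 45960 CPM in mutants and 55860 to 75070 CPM in wild types, highest in wild type 2. The count of 4 was 2 without mutant 1, 2 or 3. Exocrine pancreas markers summed to 207.7 to 6035 CPM in mutants, lowest in mutant 2, against 10030 to 15990 CPM in wild types. Of its 11 genes 0 were called by edgeR, 7 were lower at an unadjusted p under 0.05, 3 were called lower by DESeq2 and 0 by limma voom. All 11 were called lower without mutant 2. Of all 23680 tested genes, 6942 had an unadjusted p under 0.05, 3841 of them higher in mutants. Erythrocyte markers summed to 784.3, 718.2, 798 and 1356 CPM in mutants, against 1247, 1415, 1216 and 1102 CPM in wild types, with 1 of 9 lower and 0 higher, and 3 lower without mutant 4. Mutant 4 and wild type 2 had the highest erythrocyte sums of their genotype, as they had for the ribosomal protein genes. This was not particular to erythrocyte markers: the sums of the elongation factor and TOP list were also highest there (24210 and 36370 CPM). Of 18 proliferation markers, 2 were called higher and 0 lower, where 9.12% of all tested genes were called higher. All 18 had a log2 fold change above 0 (median 0.36), as had 11639 of the 23680 tested genes (median -0.007). The markers had sums of 1079 to 1253 CPM in mutants and 736.7 to 1115 CPM in wild types. These sums overlapped, with mutant 1 below wild type 2. Their count of 2 was 11 with total-count scaling, 8 without wild type 2, and 1 without mutant 1 or 2 or wild type 1, 3 or 4. No gene of these lists was at 0 in all libraries. The part of these cell types in the levels of the ribosomal protein genes was not tested. The 13 mRNAs of the mitochondrial genome took 3.37 to 3.86% of counts in mutants and 3.11 to 3.4% in wild types.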

How the data were processed

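PolyA RNA of 8 whole-larva libraries was sequenced from a stranded kit, per the labels' protocols. The deposited gene table holds raw counts. Per the submitters' processing notes the tools included featureCounts, STAR 2.5.2b, TopHat2 2.0.13 and R 3.3.1 on GRCz10; the aligner, annotation release and strand setting used for counting are not stated, so antisense and overlapping genes may share reads. The deposited splicing tables give p-values and FDR, junction read counts and inclusion levels as a fraction, per the file headers, and the difference of the mean levels, a signed score that the authors deposited beside the lengths of the forms. A deposited table of transcript p-values and q-values was not used, since its transcripts could not be joined to genes.

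The splicing tables gave symbols for 12446 genes and a names table for 14122 more, leaving 5385 without a symbol. The test was that of edgeR 4.0.16 in R 4.3.3 on the deposited counts (TMM scaling, filterByExpr with a minimum count of 10 and a minimum total of 15, robust quasi-likelihood test, Benjamini-Hochberg adjustment over all 23680 genes tested, threshold 0.05), fitted on all 8 libraries by genotype. CPM used the same scaling, with 0.5 added before logs, and SD and n are over 4 libraries per genotype. The edgeR test gives no SE, so each SE is the absolute log2 fold change divided by the square root of its F statistic. DESeq2 1.42.0, limma 3.58.1 (voom), other scalings and filters, a replicate block and leaving out each library were tried as alternatives. A second edgeR fit scaled libraries to the median of the 80 genes. On counts simulated for 23215 genes with this design, 18.8% of genes changed by 1.5-fold, 68.7% by 2-fold and 88.7% by 4-fold were called. The changed genes were drawn from all levels, and genes varied independently of each other. The members, the gene lists and the tests were chosen with earlier results of these data known. Genes were named by rule: the 12 smallest adjusted p-values, the P-stalk, the anaemia list, copies with one name stem, members with a splicing event at an FDR under 0.05, and up to 3 genes per other list. RPL11, rps6, rps9, rpl12, rps12, rps19, rpl19, rps19bp1 and the second rps27.2 gene were chosen after their values were seen. Sequences were not used here, and results of some genes are not reported here.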

Additional observations from a re-analysis of the deposited data

Results flagged for a closer look

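In 80 groups of 4 libraries examined, 10 had a highest library that stood apart from the rest, with a gap to the next library, relative to the group's range, above Dixon's 95% critical value. Chance alone gives about 1 in 20. In the upf1 mutants this was mutant 4 each time: the summed large subunit level (34490 CPM) and the levels of rpl19 (1065 CPM), rpl8 (1081 CPM), rpl9 (995.6 CPM), rpl13a (933.4 CPM), RPL17 (676.5 CPM) and rpl6 (1291 CPM). These genes share one profile over libraries, so the flags are not independent of each other. In the wild types, wild type 2 stood apart for rpl12 (1402 CPM) and rpl5a (1263 CPM), and wild type 4 for rps11l (32.46 CPM).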

How the results depend on the processing

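The direction of the medians held under every alternative run: with 1 library left out the large subunit's median lay between -0.57 and -0.35, and with total-count scaling it was -0.30 for the large and -0.30 for the small subunit. The number of genes called lower did not hold. The 21 large subunit calls became 39 with DESeq2's Wald test, 11 with total-count scaling (added after seeing the data) and 0 to 34 with 1 library left out. The 14 small subunit calls became 27, 5 and 2 to 21 in the same settings, and its 0 calls higher became 1 with DESeq2, 1 with total-count scaling and 0 to 1 with 1 library left out. Other scalings, filters and limma voom kept both counts within 1.5 times. With the replicate block the lower calls were 1 in each subunit, rps24 and rplp2, so rps2 lost its call there. The genotypes share replicate numbers in the labels, which do not say whether these pair libraries. Deviations of same-numbered libraries had correlations of 0.023, 0.034, -0.067 and -0.051, and those of other pairs lay between -0.105 and 0.156. Such values cannot exclude a shared clutch or preparation, so a pairing remains possible. Splicing events fell to 0 with an added difference of at least 0.05. The log2 fold change of rps11l lay between -0.166 and 3.312 with 1 library left out. Over 37 named members and 592 alternative values, 496 kept direction and side of the threshold, 79 lost and 15 gained a call, and 2 changed sign, both of rps11l; the cause was not tested. Depth was high in all libraries. With 4 of them per genotype, edgeR called 18.8% of 1.5-fold changes in simulated counts. The changed genes of that simulation came from all levels and varied independently. That share therefore does not describe the ribosomal protein genes, which are mostly abundant and vary together.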
